A study of Mus musculus with 26 samples.

Results

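The cold response of brown adipose tissue (BAT) was compared between 2 genotype labels as a single contrast, the change from 30 °C to 5 °C in fat-specific Afadin knockout mice (FAKO, KO in the sample labels) minus the same change in control mice (CTRL, WT in the labels). All 26 libraries of the series entered this contrast: 7 CTRL and 7 FAKO mice kept at 30 °C, and 5 CTRL and 7 FAKO mice moved to 5 °C for 6 h. FAKO mice carry floxed alleles of the Afadin gene (Afdn, called Mllt4 in the study) and Cre recombinase under the Adiponectin promoter, which is active in white as well as brown adipocytes, and CTRL mice were littermates. The mice were young adult males on a C57BL/6J background, housed singly, and every mouse, controls included, had spent 2 weeks at thermoneutrality, 30 °C by the labels. The tissue was labelled as supraclavicular BAT, and mice are named below by the replicate numbers of the labels, which run on across groups. Of 21841 protein-coding genes listed, 13662 had enough counts to be tested, and 119 of these passed the threshold for a cold response that differed by genotype label.

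Brown fat burns fatty acids and glucose to make heat when noradrenaline, released by sympathetic nerves in the cold, raises cyclic AMP in the brown adipocyte. Afadin ties nectins and other adhesion proteins at cell junctions to the actin cytoskeleton. The contrast asks which genes had a step from warm to cold that was larger, smaller or reversed under the FAKO label. A positive difference means that the step was more upward, or less downward, in FAKO than in CTRL mice, and a negative difference means the opposite. Differences are given on the log2 scale and levels in CPM, counts scaled to a common library size, which compare 1 gene between mice but not 1 gene with another.

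Genes whose step from warm to cold differed are given by the sign of the difference. On the positive side, 47 protein-coding genes (0.344% of those tested) passed, among them 9 cytosolic ribosomal proteins and enzymes of glycogen and glucose use. On the negative side, 72 genes (0.527%) passed, among them 3 chromatin remodellers and histone-modifying enzymes and 4 splicing and RNA-binding proteins of the lists below. The 2 directions together were 0.871% of the genes tested (quasi-likelihood test of edgeR, p-values adjusted by Benjamini-Hochberg over 17286 genes of any class, threshold 0.05), and all adjusted p-values below come from this test. Over genes of any class, 200 passed (1.16%). At an unadjusted p below 0.05, 1475 genes were positive (10.8%) and 640 negative (4.68%). Whatever the p-value, 63.0% of the protein-coding genes tested had a positive difference. Counts in the lists below are to be read against these shares. The differences were small, with a median of 0.47 over the 47 positive genes and -0.46 over the 72 negative genes, against 0.08 over all protein-coding genes tested (quartiles -0.08 and 0.24). In bulk tissue, fewer cells of a type and less RNA per cell cannot be told apart.

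The number that passed moved when single mice were left out. Each such fit also had a smaller group, and the effect of that was not separated from the effect of the mouse. Leaving out 1 of the 26 libraries at a time moved the count of 119 by over 1.5 times in 16 fits. It fell to 23, 33, 36, 57 and 70 without CTRL mice 17, 21, 19, 18 and 16 at 5 °C, to 26, 37, 45 and 79 without FAKO mice 8, 10, 11 and 9 at 30 °C, to 42, 55, 62 and 74 without CTRL mice 6, 2, 4 and 1 at 30 °C, and to 60 without FAKO mouse 24 at 5 °C. It rose to 208 without FAKO mouse 22 at 5 °C and to 217 without CTRL mouse 7 at 30 °C. Without CTRL mouse 7 at 30 °C and FAKO mice 24 and 25 at 5 °C, 3 libraries whose scaling factors stood apart, 168 protein-coding genes passed, 87 of them among the 119, an alternative chosen after seeing the data. The balance of directions moved with several choices. Of the genes that passed, 39.5% were positive, against 66.6% with DESeq2, 51.4% with its size factors in edgeR, 7.69% without FAKO mouse 8 at 30 °C and 57.7% without FAKO mouse 22 at 5 °C. With library size alone 124 protein-coding genes passed and none of them was positive, and the median over all protein-coding genes moved from 0.08 to -0.12. With library size alone, all 119 genes kept the sign of their difference and 54 of them passed.

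The labels were first checked against the targeted gene. Afdn (ENSMUSG00000068036.14, chromosome 17 from 13760539 to 13906150 of GRCm38), a scaffold protein of cell junctions, had 151, 200.03 and 214 CPM in the lowest, median and highest of the 7 CTRL mice at 30 °C, and 154, 204 and 231 CPM in the FAKO mice. At 5 °C the 5 CTRL mice had 67.9, 75.5, 71.2, 73.7 and 79.2 CPM, and the lowest, median and highest FAKO mice had 53.3, 57.9 and 65.3 CPM. The labels thus did not separate at 30 °C and did not overlap at 5 °C, and the names CTRL and FAKO are used as labels throughout. The exon removed is not given in the sources used here, so that the count over the whole gene may not check the deletion. The difference in the cold response of Afdn was -0.32 (SE 0.12, adjusted p = 0.179). For Afdn tested alone in log2 CPM it was -0.31 (exact two-sided permutation test with genotype labels permuted within each temperature, p = 0.03347, not adjusted over genes). This permutation assumes no genotype difference at either temperature. Its p-value therefore cannot be read as a test of the cold response alone.

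Ucp1, which uncouples respiration to make heat, was far higher in every mouse at 5 °C than in any mouse at 30 °C. It had 652, 1004 and 1292 CPM in the lowest, median and highest CTRL mice at 30 °C and 551, 813 and 1052 CPM in the FAKO mice. After 6 h at 5 °C, the 5 CTRL mice had 15959.5, 15617, 16658, 16449.9 and 15340.2 CPM and the FAKO mice had 13014, 16651 and 20990.1 CPM (lowest, median and highest). The groups overlapped at both temperatures, and the difference of the responses was 0.32 (SE 0.21, adjusted p = 0.47). Of 26 thermogenic and brown fat identity genes tested, 0 passed, with 0 at an unadjusted p below 0.05 and 0 by DESeq2. The lowest p-values among them belonged to Pparg, the master factor of adipocytes, at -0.18 (SE 0.10, adjusted p = 0.366), and Gatm, an enzyme of creatine synthesis, at 0.44 (SE 0.24, adjusted p = 0.379).

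**Figure D1:**
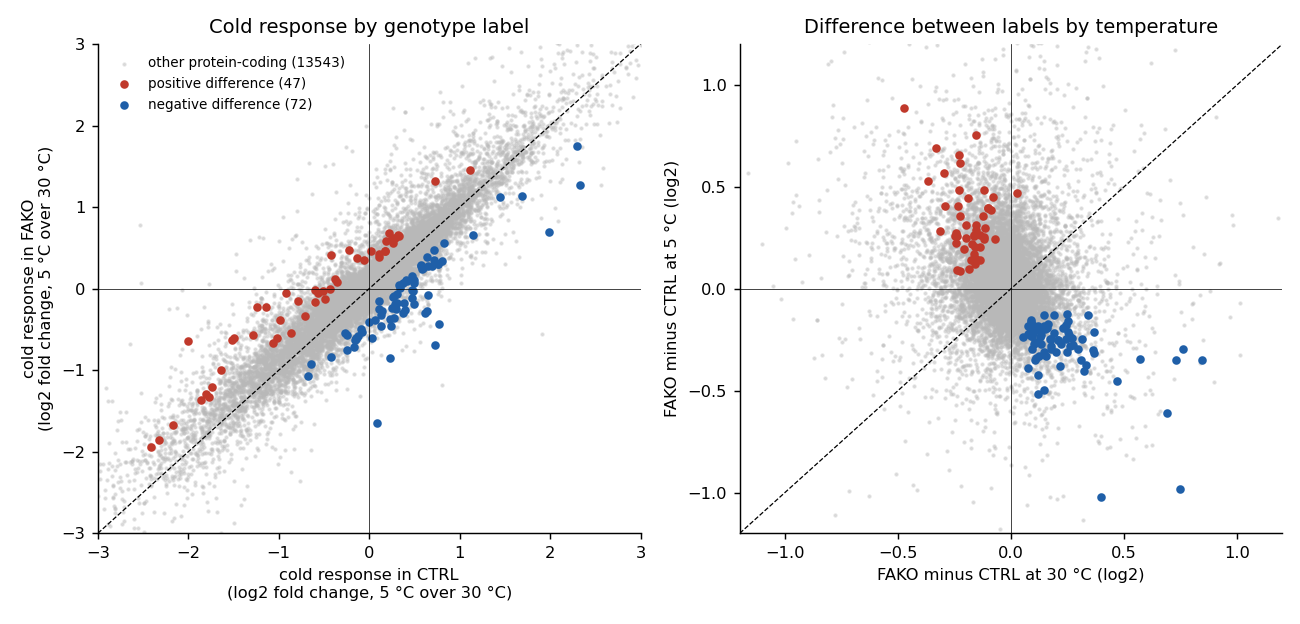
Each point is a protein-coding gene. The left panel plots the log2 fold change from 30 °C to 5 °C in FAKO mice against that in CTRL mice, and the right panel the log2 difference between FAKO and CTRL mice at 5 °C against that at 30 °C. The 47 genes with a positive difference (red) lie above the dashed line of equal values and the 72 with a negative one (blue) below it, and 304 genes in the left panel and 97 in the right panel, none of them coloured, lie outside the axes.

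Nearly all of these genes differed in opposite directions at the 2 temperatures. By the sign of the fitted fold change from 30 °C to 5 °C, 27 of the 47 positive genes were lower in the cold under both labels, 14 were higher under both, and 6 were lower in CTRL and higher in FAKO mice. Of these 47, 46 were lower in FAKO than in CTRL mice at 30 °C and 47 were higher at 5 °C, with medians of -0.17 and 0.28. Among the 72 negative genes, 32 were higher in the cold in CTRL and lower in FAKO mice, 27 were higher under both labels, and 13 were lower under both. All 72 were higher in FAKO mice at 30 °C and lower at 5 °C, with medians of 0.18 and -0.25. Over all protein-coding genes tested, 61.0% had opposite signs at the 2 temperatures. These signs are parts of the contrast that chose the genes and are given as a description.

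The lowest p-values among protein-coding genes belonged to negative differences, the first 3 of them in nuclear proteins. Ino80d (ENSMUSG00000040865.15, chromosome 1 from 62958418 to 63114667) encodes a subunit of the INO80 complex, which moves and exchanges nucleosomes. It had 42.0, 46.2 and 48.7 CPM in the lowest, median and highest CTRL mice at 30 °C, and 51.3, 56.1 and 65.8 CPM in the FAKO mice. At 5 °C the CTRL mice had 53.9, 62.7, 61.0, 60.8 and 60.0 CPM and the FAKO mice 45.0, 46.2 and 49.6 CPM. No FAKO mouse overlapped the CTRL mice at either temperature, and the order of the labels turned over between them. Its log2 fold change in the cold was 0.40 in CTRL and -0.26 in FAKO mice, a difference of -0.66 (SE 0.08, adjusted p = 0.000122).

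Ubn2 (ENSMUSG00000038538.17, chromosome 6 from 38433950 to 38524825), a partner of the chaperone that places the histone variant H3.3, had a like pattern. Its lowest, median and highest values were 53.3, 57.2 and 60.1 CPM in CTRL and 57.7, 67.6 and 70.9 CPM in FAKO mice at 30 °C. In the cold they were 47.9, 51.3 and 54.3 CPM in FAKO mice, and the 5 CTRL mice had 59.7, 67.0, 66.1, 67.8 and 73.9 CPM. The labels overlapped at 30 °C and did not overlap at 5 °C, and the difference was -0.60 (SE 0.07, adjusted p = 0.000124).

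Zfp871 (ENSMUSG00000024298.14, chromosome 17 from 32765496 to 32788287), a zinc finger protein, had 42.9, 44.6 and 46.0 CPM in CTRL and 47.7, 54.2 and 57.1 CPM in FAKO mice at 30 °C, in the same order. At 5 °C it had 54.3, 55.5, 54.9, 55.2 and 53.6 CPM in the CTRL mice and 39.5, 45.9 and 48.1 CPM in FAKO mice. The groups were apart at both temperatures in opposite order, and the difference was -0.55 (SE 0.07, adjusted p = 0.000124). It was the only one of 344 tested Zfp genes that passed, and the median over them was 0.04, or -0.16 with library size alone. The same medians over all protein-coding genes were 0.08 and -0.12.

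Bmpr2 (ENSMUSG00000067336.6, chromosome 1 from 59763400 to 59879014), the type II receptor through which bone morphogenetic proteins signal, had 105, 107 and 117 CPM in CTRL and 121, 127 and 142 CPM in FAKO mice at 30 °C. After cold the CTRL mice had 145, 159, 162, 151 and 138 CPM and the FAKO mice 112, 130.1 and 135 CPM. Here, too, the groups were apart at both temperatures. The log2 fold change of Bmpr2 in the cold was 0.47 in CTRL and -0.02 in FAKO mice, a difference of -0.49 (SE 0.08, adjusted p = 0.00217).

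Nf1 (ENSMUSG00000020716.16, chromosome 11 from 79339693 to 79581612), which encodes neurofibromin, an inactivator of Ras, had 71.0, 78.5 and 97.5 CPM in CTRL and 82.4, 92.6 and 96.7 CPM in FAKO mice at 30 °C. At 5 °C it had 167, 197, 186, 175 and 180.0 CPM in the CTRL mice and 130.3, 145 and 159 CPM in FAKO mice. The labels overlapped at 30 °C only, and the difference was -0.49 (SE 0.09, adjusted p = 0.0132). Usp34, a deubiquitinase, had a difference of -0.47 (SE 0.08, adjusted p = 0.00874) with the same pattern of overlap. The other genes of lowest p on this side were Ylpm1, a nuclear protein (-0.45), 4932438A13Rik (-0.35), Tmem245, a membrane protein (-0.47), Nbea, an anchor of protein kinase A (-0.46), and the RNA-binding paralogs Rbm4b (-0.51) and Rbm4 (-0.67). Their adjusted p-values ran from 0.00727 for Ylpm1 to 0.0202 for Nbea. Rbm4 and Rbm4b are near copies of each other, so that counting may have split their reads. All 12 of these negative genes passed the threshold in each of the 26 fits that left out 1 library.

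**Figure D2:**
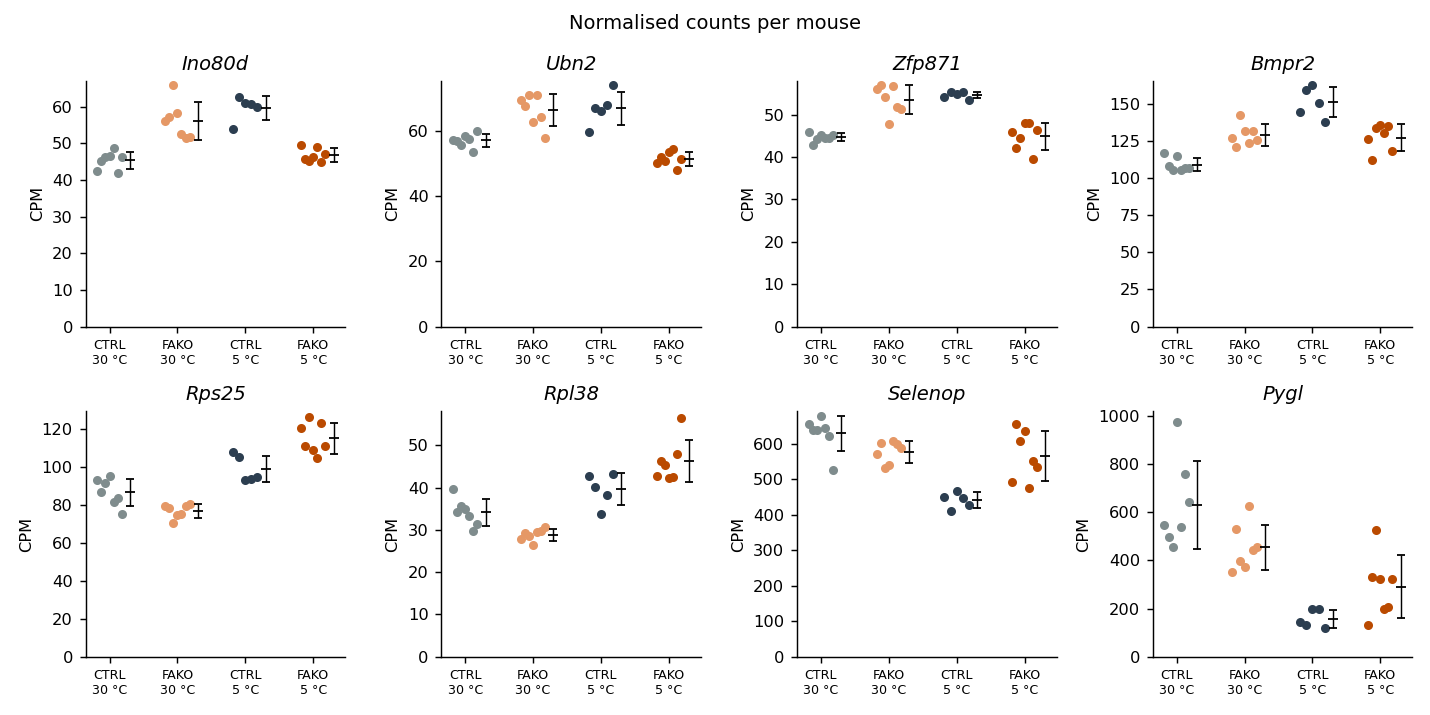
Normalised counts (CPM, axes from 0) of 8 genes are plotted for each mouse in the 4 groups, with the mean and SD of each group as a black bar. Ino80d, Ubn2, Zfp871 and Bmpr2 are higher in FAKO mice at 30 °C and lower at 5 °C by their means, and Rps25, Rpl38, Selenop and Pygl show the opposite order.

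Lists of genes that act on chromatin and on RNA held negative genes only among those that passed. Of 107 chromatin remodellers and histone-modifying enzymes tested, 3 passed, all negative, against 0.527% over all protein-coding genes, and 74 had a negative sign. At an unadjusted p below 0.05, 18 were negative and 5 positive, against 4.68% and 10.8% over all protein-coding genes. The median of the list was -0.08, against 0.08 over all protein-coding genes. Besides Ino80d, those that passed were Kmt2c, a methyltransferase of histone H3 at enhancers, at -0.28 (SE 0.06, adjusted p = 0.0293), and Bptf, the large subunit of the NURF remodeller, at -0.39 (SE 0.09, adjusted p = 0.0391). Kmt2c passed in 21 of the 26 fits without 1 library and Bptf in 11. With library size alone 1 member of the list passed, and likewise 1 with an offset in each library for exon length, an alternative chosen after seeing the data.

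Among 106 splicing regulators and RNA-binding proteins tested, 4 passed, all negative, against 0.527% negative over all protein-coding genes. At an unadjusted p below 0.05, 21 were negative and 1 positive, against 4.68% and 10.8% over all protein-coding genes. The median of the list was -0.05. Besides Rbm4, those that passed were Rbm15, Rbm26 and Rbm6. Rbm15, part of the complex that methylates adenosine in RNA, had a difference of -0.33 (SE 0.08, adjusted p = 0.0366). Rbm26 had -0.37 and Rbm6 -0.26, with adjusted p-values of 0.0388 and 0.0391. Rbm15 passed in 13 of the 26 fits without 1 library, Rbm26 in 11 and Rbm6 in 9. When libraries were scaled by their size only, the chromatin median was -0.27 and the splicing median -0.25. The median over all protein-coding genes was then -0.12.

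In the signalling lists few genes passed. Of 66 adrenergic receptor and cyclic AMP genes, only Pde3a, a phosphodiesterase that breaks down cyclic AMP, did so. The list had a median of 0.02, or -0.01 without the 3 libraries of outlying scaling factors. With library size alone its median was -0.17, against -0.12 over all protein-coding genes. Pde3a had 10.2, 12.4 and 13.8 CPM in CTRL and 10.2, 13.3 and 16.0 CPM in FAKO mice at 30 °C (lowest, median and highest). It had 66.6, 58.4, 62.3, 65.8 and 47.6 CPM in the 5 CTRL mice and 36.8, 45.6 and 51.8 CPM in FAKO mice at 5 °C, where the groups overlapped. Its difference was -0.54 (SE 0.14, adjusted p = 0.04997), and it passed in 4 of the 26 fits without 1 library. Of 43 Notch pathway genes 0 passed (1 negative by DESeq2), with 6 negative and 1 positive at an unadjusted p below 0.05 and a median of -0.08. The lowest p-values there were those of Dtx3, a Notch-linked ubiquitin ligase (-0.43, SE 0.12, adjusted p = 0.074), and the receptor Notch3 (-0.48, SE 0.15, adjusted p = 0.105). Of 37 junction genes around Afadin 0 passed (1 negative by DESeq2), 2 were positive and 4 negative at an unadjusted p below 0.05, and the polarity protein Pard3 had a difference of -0.31 (SE 0.09, adjusted p = 0.0736).

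Among negative genes with a mean of at least 1 CPM, the 6 of largest difference had means of 1.10 CPM (Ska3) to 15.7 CPM (Prag1). Without this floor, the largest negative difference of a protein-coding gene past the threshold was -1.73. Ska3, a spindle and kinetochore protein, had a difference of -1.42 (SE 0.34, adjusted p = 0.0391), with 0.394, 0.699 and 1.52 CPM in the lowest, median and highest FAKO mice at 5 °C and 1.60, 2.44, 1.46, 1.25 and 1.15 CPM in the 5 CTRL mice. Klrg2 had -1.30 (SE 0.32, adjusted p = 0.0444), the phosphatase Ppm1e -1.07 (SE 0.25, adjusted p = 0.033), A730049H05Rik -1.06 (SE 0.25, adjusted p = 0.0388), the potassium channel subunit Kcnab1 -0.92 (SE 0.22, adjusted p = 0.0391) and the pseudokinase Prag1 -0.92 (SE 0.21, adjusted p = 0.0327). In all 6 of these genes the labels overlapped at both temperatures. They passed in 7 (Ska3) to 21 (Prag1) of the 26 fits without 1 library.

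On the positive side, the ribosome was the list with the most genes. Cytosolic ribosomal proteins are the structural parts of the machine that translates mRNA. Of 85 tested, 9 passed and all 9 were positive, against 0.344% of all protein-coding genes, and 67 were positive at an unadjusted p below 0.05 against 10.8%. A positive sign was seen in 84 of the 85, with a median of 0.23. The median FAKO-minus-CTRL value of the list was -0.13 at 30 °C and 0.11 at 5 °C. Scaled by library size only, the ribosomal median was 0.04, 67 of 85 were positive and 0 passed. Over all protein-coding genes the median was then -0.12, and 30.5% were positive. With the offset for exon length 0 of the 85 passed and the median was 0.14, and by DESeq2 32 passed. Ribosomal protein genes have many processed pseudogenes, whose reads counting could split from theirs.

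Rps25 (ENSMUSG00000009927.9, chromosome 9 from 44407139 to 44410427), a protein of the small subunit, had 75.3, 86.7 and 95.3 CPM in the lowest, median and highest CTRL mice at 30 °C and 70.4, 78.6 and 80.8 CPM in FAKO mice. At 5 °C the 5 CTRL mice had 108, 105, 93.2, 93.6 and 94.9 CPM and the FAKO mice 105, 111 and 127 CPM. FAKO mice lay toward the low end at 30 °C and toward the high end at 5 °C, with overlap at both. Its log2 fold change in the cold was 0.19 in CTRL and 0.58 in FAKO mice, a difference of 0.39 (SE 0.08, adjusted p = 0.0269).

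Rpl38 (ENSMUSG00000057322.12, chromosome 11 from 114668524 to 114672331), a protein of the large subunit, had 29.7, 34.1 and 39.6 CPM in CTRL and 26.3, 29.2 and 30.7 CPM in FAKO mice at 30 °C. It had 42.8, 40.1, 33.8, 38.4 and 43.2 CPM in the CTRL mice and 42.4, 45.3 and 56.5 CPM in FAKO mice at 5 °C, and the labels overlapped at both temperatures. The difference was 0.47 (SE 0.10, adjusted p = 0.0295). Rpl39 had 0.44, and its 7 FAKO mice lay above the 5 CTRL mice at 5 °C, at 19.3, 20.8 and 23.4 CPM against 16.3, 18.7, 17.0, 17.5 and 18.7 CPM. For Rpl21 (0.28) the labels were apart at 30 °C instead, with 81.9, 84.3 and 88.3 CPM in CTRL and 69.6, 73.2 and 79.2 CPM in FAKO mice. The other 5, outside the naming rule and chosen after their values were seen, were Rps24 (0.28), Rpl37a (0.30), Rpl32 (0.34), Rps4x (0.28) and Rps15a (0.60). Sbds, which readies the large subunit for translation, stood beside them at 0.33 (SE 0.07, adjusted p = 0.0269), and its FAKO mice were all below the CTRL mice at 30 °C.

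Promoters of 4 genes among those of lowest p are shown, 2 from each side, as examples of the windows searched, with the bases from 250 before to 50 after the transcription start given in RefSeq (GRCm38.p6) and motifs in capitals. The search covered both strands for the cyclic AMP response element TGACGTCA, the CCAAT box CCAAT, the TATA box TATAAA, the E-box CACGTG, the GC box GGGCGG, the ETS site ACTTCCGG and the NRF1 site, a 10-base palindrome.
Rps25 (chr9:44407464-44407763, plus strand): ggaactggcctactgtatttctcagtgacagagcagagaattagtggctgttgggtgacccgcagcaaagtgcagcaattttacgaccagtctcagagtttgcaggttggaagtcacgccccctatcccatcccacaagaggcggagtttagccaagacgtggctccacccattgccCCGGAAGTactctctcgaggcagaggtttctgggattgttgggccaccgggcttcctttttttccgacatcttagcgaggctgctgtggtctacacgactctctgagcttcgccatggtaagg
Rpl38 (chr11:114668330-114668629, plus strand): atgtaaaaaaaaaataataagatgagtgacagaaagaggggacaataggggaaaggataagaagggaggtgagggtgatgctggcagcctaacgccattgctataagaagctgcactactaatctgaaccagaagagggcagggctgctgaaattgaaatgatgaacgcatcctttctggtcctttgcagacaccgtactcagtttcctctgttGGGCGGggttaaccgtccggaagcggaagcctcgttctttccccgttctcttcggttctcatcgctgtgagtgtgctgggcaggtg
Ubn2 (chr6:38433675-38433974, plus strand): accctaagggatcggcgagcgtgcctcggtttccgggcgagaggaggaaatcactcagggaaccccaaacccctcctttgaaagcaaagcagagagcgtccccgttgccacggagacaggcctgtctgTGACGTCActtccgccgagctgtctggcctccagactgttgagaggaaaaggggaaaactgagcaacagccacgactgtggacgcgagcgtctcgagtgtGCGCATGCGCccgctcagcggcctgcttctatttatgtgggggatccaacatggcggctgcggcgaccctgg
Usp34 (chr11:23306645-23306944, plus strand): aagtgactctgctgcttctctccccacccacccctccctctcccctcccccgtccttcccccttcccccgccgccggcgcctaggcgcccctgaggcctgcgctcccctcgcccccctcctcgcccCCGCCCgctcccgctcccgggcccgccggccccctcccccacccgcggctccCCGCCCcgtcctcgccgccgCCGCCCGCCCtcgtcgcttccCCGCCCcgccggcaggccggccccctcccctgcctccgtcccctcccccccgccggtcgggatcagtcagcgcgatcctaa
The capitals mark 1 ETS site on the minus strand in Rps25, 1 GC box in Rpl38, a cyclic AMP response element and an NRF1 site in Ubn2, and 5 GC boxes on the minus strand in Usp34, of which 1 pair overlaps. Windows were at hand for 36 of the 47 positive genes, 57 of the 72 negative genes, 64 of the 85 ribosomal protein genes and 10685 of 13661 symbols tested. The cyclic AMP response element stood in 2.78% of the positive, 5.26% of the negative and 3.42% of all promoters. The CCAAT box stood in 27.8%, 33.3% and 42.4%, the TATA box in 16.7%, 7.02% and 9.34%, the E-box in 5.56%, 14.0% and 11.4%, the GC box in 69.4%, 73.7% and 66.5%, the ETS site in 5.56%, 10.5% and 8.61%, and the NRF1 site in 5.56%, 3.51% and 2.23%. Among ribosomal protein genes the cyclic AMP response element stood in 9.38%, the CCAAT box in 31.2%, the TATA box in 10.9%, the E-box in 9.38%, the GC box in 62.5%, the ETS site in 18.8% and the NRF1 site in 3.12%. Median GC content was 58.5% in the positive, 64.3% in the negative and 60.3% in all promoters. Each such match is a description of the letters.

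The lists of glycogen, glycolysis and pyruvate genes held 5 positive genes that passed. Fbp2, a fructose-bisphosphatase in none of these lists and named after its value was seen, also passed at 0.84 (SE 0.21, adjusted p = 0.0483). Pygl (ENSMUSG00000021069.16, chromosome 12 from 70190811 to 70231488), the liver form of glycogen phosphorylase, had 455, 546 and 976 CPM in the lowest, median and highest CTRL mice at 30 °C and 354, 443 and 624 CPM in FAKO mice. At 5 °C the 5 CTRL mice had 143, 134, 198, 196 and 117 CPM and the FAKO mice 132, 322 and 528 CPM. The FAKO mice were widely spread in the cold and overlapped the CTRL mice at both temperatures. The log2 fold change of Pygl was -2.00 in CTRL and -0.64 in FAKO mice, and the difference of 1.36 (SE 0.33, adjusted p = 0.0408) was the largest positive one among the genes past the threshold, although it passed in 7 of the 26 fits without 1 library.

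Ugp2, which makes UDP-glucose for glycogen, had a difference of 0.70 (SE 0.16, adjusted p = 0.0327). It had 169, 123, 159, 154 and 148 CPM in the CTRL mice and 136, 192 and 247 CPM (lowest, median and highest) in FAKO mice at 5 °C. Of 22 glycogen genes tested, these 2 passed, against 0.344% positive over all protein-coding genes. A positive sign was seen in 21, against 63.0% over all, and the median was 0.30. In glycolysis, 2 of 30 genes passed, both positive, namely Tpi1, triosephosphate isomerase (0.36, SE 0.09, adjusted p = 0.0388), and Pkm, pyruvate kinase (0.51, SE 0.12, adjusted p = 0.0408), and the median was 0.27. Tpi1 passed in 9 and Pkm in 10 of the 26 fits without 1 library. With library size alone the medians were 0.06 for glycogen and 0.07 for glycolysis, against -0.12 over all protein-coding genes. In either list 0 members then passed, and the signs of the 4 genes were kept. Without the 3 libraries of outlying scaling factors, the medians were 0.14 for glycogen with 1 passed and 0.11 for glycolysis with 0 passed. With the offset for exon length 1 glycogen and 0 glycolysis genes passed.

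Pdk1 (ENSMUSG00000006494.11, chromosome 2 from 71873224 to 71903858) encodes a kinase that inhibits pyruvate dehydrogenase. It had 154, 176 and 213 CPM in CTRL and 107, 135 and 169 CPM in FAKO mice at 30 °C. It had 58.4, 51.8, 69.9, 85.2 and 48.6 CPM in the 5 CTRL mice and 56.0, 96.0 and 112 CPM in FAKO mice at 5 °C. The labels overlapped at both temperatures, and the difference was 0.90 (SE 0.21, adjusted p = 0.033). It was the only one of 41 pyruvate and citrate cycle genes that passed. Of the 41, 38 were positive, against 63.0% over all protein-coding genes, and their median was 0.22 (0.01 with library size alone). The median over all protein-coding genes was 0.08, or -0.12 with library size alone.

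The lists of respiratory chain and fatty acid oxidation genes leaned the same way without any member that passed. Of 84 nuclear-encoded respiratory chain subunits 0 passed (3 positive by DESeq2), while 82 were positive and 47 were positive at an unadjusted p below 0.05, against 10.8% of all protein-coding genes. Their median was 0.21 (0.02 with library size alone, 0.11 with the offset for exon length). The same medians over all protein-coding genes were 0.08, -0.12 and 0.04. Atp5g3, a ring subunit of ATP synthase, had 0.43 (SE 0.11, adjusted p = 0.0562), and Cycs, cytochrome c, 0.31 (SE 0.10, adjusted p = 0.115). Of 28 genes of mitochondrial fatty acid oxidation 0 passed (1 positive by DESeq2), 8 were positive and 0 negative at an unadjusted p below 0.05, and the median was 0.19, or -0.01 with library size alone. Cpt1a, which carries fatty acids into the mitochondrion, had 0.36 (SE 0.11, adjusted p = 0.114), and Decr1, an enzyme for unsaturated fatty acids, 0.32 (SE 0.11, adjusted p = 0.129).

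The largest medians of the lists drawn lay in immediate early genes and lipogenesis, where 0 members passed. For 24 genes of lipogenesis the median was 0.53, 20 were positive and 0 passed (1 positive by DESeq2), with 9 positive and 0 negative at an unadjusted p below 0.05. Over all protein-coding genes 63.0% were positive, and 10.8% were positive at that unadjusted p. Acaca, which commits acetyl-CoA to fat synthesis, had log2 fold changes of -2.48 in CTRL and -1.57 in FAKO mice (0.91, SE 0.29, adjusted p = 0.115), and malic enzyme Me1 had 1.11 (SE 0.37, adjusted p = 0.132). Of 26 cholesterol synthesis genes 0 passed (1 positive by DESeq2) and 5 were positive at an unadjusted p below 0.05, with Fdft1, squalene synthase, at 0.79 (SE 0.22, adjusted p = 0.067) and Nsdhl at 0.61 (SE 0.20, adjusted p = 0.129). All 20 lipolysis and lipid droplet genes had a positive sign, 0 passed (0 by DESeq2) and 2 had an unadjusted p below 0.05, those of the lipases Lipe (0.38, SE 0.14, adjusted p = 0.189) and Mgll (0.27, SE 0.12, adjusted p = 0.278). Of 39 immediate early genes 38 were positive with a median of 0.56, 0 passed (0 by DESeq2) and 3 were positive at an unadjusted p below 0.05. Maff, a small Maf factor, had 0.80 (SE 0.31, adjusted p = 0.189) and the phosphatase Dusp4 0.79 (SE 0.33, adjusted p = 0.227). For the immediate early genes the FAKO-minus-CTRL median was -0.46 at 30 °C and 0.06 at 5 °C, whereas for lipogenesis it was -0.14 and 0.28. Scaled by library size only, the medians were 0.36 for both lists (0.33 for lipogenesis without the 3 libraries of outlying scaling factors), 0.08 for cholesterol synthesis and 0.08 for lipolysis. Over all protein-coding genes it was then -0.12. Of the 20 lipolysis genes, 15 were positive with library size alone and 15 without those 3 libraries. Over all protein-coding genes 30.5% and 60.7% were positive in these fits.

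**Figure D3:**
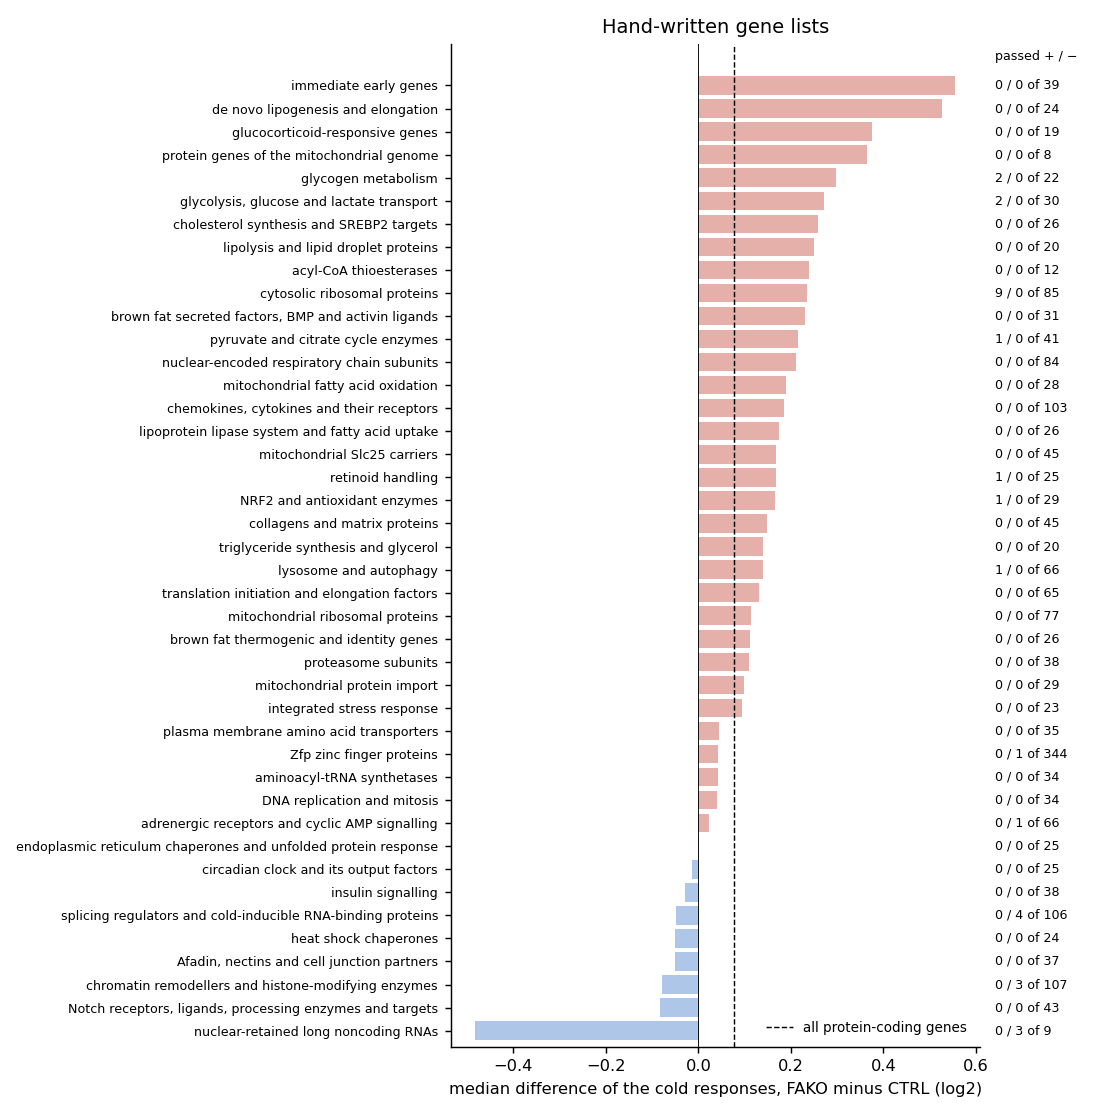
Bars give the median difference of the cold responses (FAKO minus CTRL, log2) over the tested members of 42 gene lists, and the numbers at the right the members past the threshold in each direction. The dashed line is the median of all protein-coding genes, 0.08. With library size alone the median of all protein-coding genes moved to -0.12. Of the 34 lists with a positive median, 20 then became negative, and of the 8 with a negative median none became positive.

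The positive genes of lowest p were of mixed function. Selenop (ENSMUSG00000064373.11, chromosome 15 from 3268547 to 3280508) encodes selenoprotein P, the carrier of selenium. It had 528, 640.2 and 679 CPM in the lowest, median and highest CTRL mice at 30 °C and 532, 589 and 608 CPM in FAKO mice. At 5 °C the CTRL mice had 451, 409.7, 468, 449 and 429 CPM and the FAKO mice 475, 551 and 656 CPM. The labels overlapped at 30 °C, and at 5 °C every FAKO mouse was above every CTRL mouse. The log2 fold change of Selenop was -0.51 in CTRL and -0.03 in FAKO mice, a difference of 0.48 (SE 0.10, adjusted p = 0.0239).

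Dhrs7, a short-chain dehydrogenase, had log2 fold changes of -1.63 in CTRL and -0.99 in FAKO mice (0.64, SE 0.13, adjusted p = 0.0239). It had 28.4, 27.4, 30.9, 27.6 and 25.2 CPM in the CTRL mice and 29.7, 34.8 and 44.5 CPM in FAKO mice at 5 °C, which overlapped. Thnsl2, a threonine synthase-like protein, had 0.89 (SE 0.19, adjusted p = 0.0239), and Necap1, an adaptor of clathrin-coated vesicles, 0.32 (SE 0.07, adjusted p = 0.0246). Also past the threshold were Pigp, of GPI anchor synthesis (0.58), Ttc7, of a phosphatidylinositol kinase complex (0.72), the tetraspanin Cd151 (0.36), Rtf2, a replication factor (0.43), and the glutathione transferase Mgst3 (0.43). Their adjusted p-values were 0.0306 for Pigp and Ttc7 and 0.0327 for Cd151, Rtf2 and Mgst3. Of the 12 positive genes of lowest p, none passed in all 26 fits without 1 library; they passed in 16 (Mgst3) to 25 (Selenop and Dhrs7) of them.

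Enzymes that act on peroxides and aldehydes gave single genes. Gpx1, glutathione peroxidase, was the only one of 29 antioxidant genes that passed, at 0.40 (SE 0.09, adjusted p = 0.0355), and had 189, 211 and 224 CPM in FAKO mice (lowest, median and highest) and 175, 174, 196, 189 and 182 CPM in the CTRL mice at 5 °C, with overlap. Aldh1a7, an aldehyde dehydrogenase close in sequence to Aldh1a1, passed among 25 retinoid genes at 0.86 (SE 0.20, adjusted p = 0.033). Ctsb, the lysosomal protease cathepsin B, passed among 66 lysosome and autophagy genes at 0.44 (SE 0.10, adjusted p = 0.0355). At 5 °C its 7 FAKO mice had 850.1, 1006 and 1125 CPM and the 5 CTRL mice 829.8, 786, 808, 822 and 849 CPM, without overlap. The medians of these lists were 0.17, 0.17 and 0.14, against 0.08 over all protein-coding genes. With library size alone they were -0.03, -0.02 and -0.06, against -0.12 over all protein-coding genes. With the offset for exon length 0 members of these 3 lists passed, and without the 3 libraries of outlying scaling factors 3, 0 and 1 did. Ufsp1, a protease of the modifier UFM1 (1.02, SE 0.24, adjusted p = 0.0355), and Hist1h3f, a histone H3 gene of a family of near copies (0.91, SE 0.22, adjusted p = 0.04), were large in size at low levels, with at most 5.83 and 4.82 CPM in any mouse.

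In all, 93 of the 119 genes were in none of the lists, and some of these were regulators of transcription or RNA, chosen here after their values were seen. Among transcription factors, Cebpa (0.47), which directs adipocyte differentiation, and Stat6 (0.31) were positive, and Nfib (-0.42), Irf2 (-0.64), Nfat5 (-0.47), Zbtb46 (-0.46) and Mga (-0.33) were negative. Negative genes in none of the lists that bind or process RNA included Atxn2 (-0.59), Ago3 (-0.49), Smg1 (-0.42), Rc3h1 (-0.46), Srek1 (-0.31), Sfswap (-0.33), Safb2 (-0.46) and Zc3h11a (-0.56), a hand-picked set that says nothing of RNA-binding proteins as a group. Pcdhgb4 (-0.64) and Pcdhgb5 (-0.71), protocadherins that share exons, were negative, and counting could split their reads.

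The 2 sides differed in gene length, a feature that the rule did not use and that is given as a description. The merged exons of the negative genes had a median of 11362 bases and those of the positive genes 2893, against 4480.5 over all protein-coding genes tested. Whole genes spanned a median of 97490 bases on the negative side, 10702 on the positive side and 24431 over all. When all tested genes were split into 5 equal groups by exon bases, the median difference was 0.17, 0.13, 0.08, 0.04 and -0.03 from the shortest to the longest. The negative genes numbered 0, 4, 4, 11 and 53 in these groups, and the positive genes 17, 14, 7, 7 and 2. Across protein-coding genes, which are not independent replicates and share libraries, Spearman's rho between the difference and exon bases was -0.25. With the offset for exon length, 48 genes passed, 9 positive and 39 negative, and 41 of them were among the 119.

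**Figure D4:**
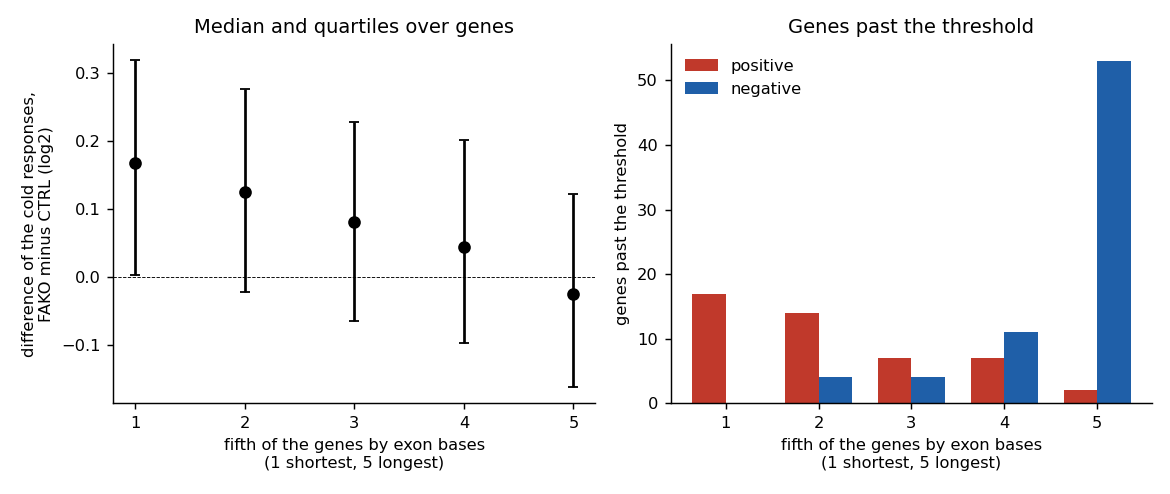
Tested protein-coding genes are split into 5 equal groups by the bases in their merged exons. Points and bars in the left panel are the median and quartiles of the difference (log2), which ran from 0.17 in the shortest to -0.03 in the longest group, and the right panel counts the genes past the threshold, with 53 of the 72 negative genes in the longest group.

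RNAs that stay in the nucleus moved with the negative genes. Of 9 nuclear-retained long noncoding RNAs tested 3 passed, all 9 were negative, and the median was -0.48 (-0.68 with library size alone). Neat1, the scaffold of paraspeckles, had 479, 607 and 1016 CPM in the lowest, median and highest CTRL mice at 30 °C and 784, 933 and 1234 CPM in FAKO mice. At 5 °C it had 2333, 3589, 2265, 3777 and 5405 CPM in the 5 CTRL mice and 1262, 1795 and 2116 CPM in FAKO mice. The labels overlapped at 30 °C and did not at 5 °C, and the difference was -1.61 (SE 0.26, adjusted p = 0.00268). The imprinted antisense RNAs Airn (-0.56, SE 0.12, adjusted p = 0.0232) and Kcnq1ot1 (-0.48, SE 0.11, adjusted p = 0.0327) also passed; whether counting used strand is not given in the sources used here, so that reads of Airn and Kcnq1ot1 cannot be told apart from those of the genes they overlap. Of all 3624 tested genes that are not protein-coding, 78 passed as negative (2.15%) and 3 as positive (0.0828%). The median difference over the 3624 was -0.21. Of the 78, 47 were entries of the class TEC, predicted transcripts not yet tested by experiment. TEC entries were 961 of the 3624 tested and had a median of -0.39.

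The mean log2 CPM of the 9 nuclear RNAs ran from 5.39 to 5.60 in CTRL and from 5.59 to 5.80 in FAKO mice at 30 °C, and from 5.66 to 5.75 in CTRL and from 5.14 to 5.53 in FAKO mice at 5 °C. TEC entries took 0.209% to 0.299% and 0.297% to 0.328% of all counts at 30 °C, and 0.256% to 0.291% and 0.196% to 0.250% at 5 °C, in the same order. The direction of both measures in the 4 groups was that of the negative genes. With the nuclear RNA mean as a covariate, 0 protein-coding genes passed (edgeR), 1674 had an unadjusted p below 0.05, and 118 of the 119 kept their sign. Under this covariate 48 of 85 ribosomal proteins were positive (median 0.02), and 17 of 39 immediate early genes (median -0.06). For lipogenesis 20 of 24 were positive (median 0.73), for lipolysis and lipid droplets 10 of 20 (median 0.06), and over all protein-coding genes 51.9% (median 0.02). The nuclear RNA mean itself differs between the groups. The part of nuclear RNA in the result cannot be told apart from that of the labels.

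**Figure D5:**
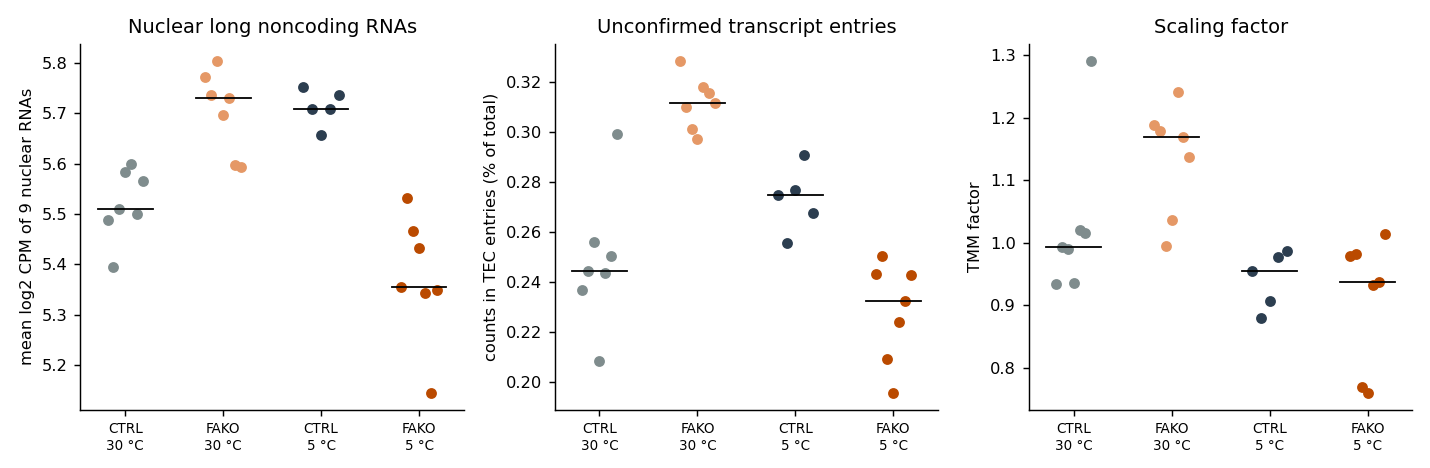
Each point is a mouse and each line a group median. The panels show the mean log2 CPM of 9 nuclear RNAs, the percentage of all counts in TEC entries and the scaling (TMM) factor. FAKO mice are higher than most CTRL mice at 30 °C and lower than all CTRL mice at 5 °C in the first 2 panels, and CTRL mouse 7 at 30 °C has a factor of 1.29.

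Total counts per mouse ran from 12705969 to 25732258. CTRL mouse 7 at 30 °C stood apart, with 14.3% of its counts in mitochondrial genes against a median of 37.2% in its group and a scaling factor of 1.29, and FAKO mice 24 and 25 at 5 °C had factors of 0.769 and 0.759. The summed level of adipocyte markers was 10697 to 15568 CPM in CTRL and 10106 to 14141 CPM in FAKO mice at 30 °C, and 12832 to 14396 and 12944 to 16067 CPM at 5 °C. Endothelial markers moved with the negative genes, since 13 of 15 were negative (median -0.18, or -0.10 without these 3 libraries) and 0 passed, and their sums were 1011 to 1293 and 1097 to 1519 CPM at 30 °C and 1352 to 1539 and 1143 to 1504 CPM at 5 °C. Markers of red blood cells moved with the positive genes, with 8 of 9 positive, 0 passed, a median of 1.17 and sums of 235 to 1128 and 293 to 613 CPM at 30 °C and 419.6 to 689 and 519.9 to 1503 CPM at 5 °C. Macrophage markers were positive in 14 of 15 (median 0.30, 0 passed), and skeletal muscle markers, whose sums ran from 48.0 to 20699.9 CPM over all mice, in 17 of 19 (median 0.76, 0 passed). Without the 3 libraries named above, 0 of the 19 muscle markers were positive and their median was -2.30. By DESeq2, 1 endothelial marker passed and 0 of the other 3 marker lists did. At an unadjusted p below 0.05, 1 endothelial marker was positive and 3 negative, 5 red cell markers were positive, 3 macrophage markers were positive and 1 negative, and 0 muscle markers were found. Markers of neutrophils (8 of 8 positive, median 1.12) and lymphocytes (12 of 13, median 1.11) were low, with sums of at most 18.9 and 21.8 CPM outside FAKO mice at 5 °C and up to 93.5 and 48.4 CPM in these; 0 passed by edgeR or DESeq2, 2 and 4 were positive at an unadjusted p below 0.05, and Ly6g, Ngp, Ltf, Camp and Cd3d had too few counts to be tested. The medians of these 6 lists kept their sign with library size alone, while with the nuclear RNA mean as a covariate the neutrophil median was -2.50, with 1 of 8 positive. The part of these markers in the result was not tested.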

How the data were processed

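BAT total RNA from 26 mice was depleted of ribosomal RNA and sequenced by the authors from stranded TruSeq libraries. Per the study's methods and processing notes, reads were aligned to mm10 with STAR 2.5.2b and counted per gene with featureCounts 1.5.2, and the authors used edgeR 3.22.0; the strand setting is not given in the sources used here. The deposited values are raw read counts per gene, 12705969 to 25732258 per mouse. Of 50686 gene identifiers, 50462 matched a symbol in the GENCODE annotation of GRCm38 used here, which also gave classes, coordinates and exon bases.

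Groups came from the sample labels. Genes passing filterByExpr by group were scaled by TMM and fitted with edgeR 4.0.16 (quasi-likelihood, legacy mode, no covariates; limma 3.58.1, R 4.3.3), and the contrast was adjusted by Benjamini-Hochberg over 17286 genes at 0.05. CPM and log2 CPM (prior count 2) use the same scaling. P-values measure the spread between mice. Named were Afdn, Ucp1, the 12 protein-coding genes of lowest p and the 6 largest in each direction (mean of at least 1 CPM). In each list up to 4 that passed were also named. Where none passed, the 2 of lowest p were named only in lists picked for description in the text, and the other lists gave none. The result of 1 of these genes is not reported here. The members and gene lists were chosen with earlier results of these data known. DESeq2 1.42.0, other scalings and filters (at least 10 counts in every sample, or none), covariates and leaving out each mouse were alternatives. The code was tested on simulated data. Promoter windows came from RefSeq.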

Additional observations from a re-analysis of the deposited data

Results flagged for a closer look

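For the 71 named genes, 17 of 284 gaps tested at the ends of a group were past Dixon's critical value, where chance gives about 1 in 20. CTRL mouse 7 at 30 °C gave 10 of them, with 528 CPM for Selenop, 32.6 CPM for Necap1, 36.5 CPM for Sbds, 126 CPM for Usp34, 151 CPM for Tmem245, 18.0 CPM for Prag1, 151 CPM for Afdn, 1223 CPM for Ctsb, 1016 CPM for Neat1 and 439 CPM for Mgll. FAKO mouse 28 at 5 °C lay apart for Rpl38 (56.5 CPM) and Cycs (432 CPM), FAKO mouse 26 for Ska3 (1.52 CPM) and FAKO mouse 27 for A730049H05Rik (15.1 CPM). Among the CTRL mice at 5 °C, mouse 21 lay apart for Mgst3 (38.3 CPM), mouse 16 for Usp34 (173 CPM) and mouse 17 for Gatm (0.975 CPM).

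The difference between the labels was itself the test, and 51 of the 71 named genes passed it. In log2, those with a positive difference were Selenop (0.48), Dhrs7 (0.64), Thnsl2 (0.89), Necap1 (0.32), Rps25 (0.39), Sbds (0.33), Rpl38 (0.47), Pigp (0.58), Ttc7 (0.72), Cd151 (0.36), Rtf2 (0.43), Mgst3 (0.43), Pygl (1.36), Ufsp1 (1.02), Hist1h3f (0.91), Pdk1 (0.90), Aldh1a7 (0.86), Gpx1 (0.40), Ugp2 (0.70), Tpi1 (0.36), Pkm (0.51), Ctsb (0.44), Rpl21 (0.28) and Rpl39 (0.44). Those with a negative difference were Ino80d (-0.66), Ubn2 (-0.60), Zfp871 (-0.55), Bmpr2 (-0.49), Ylpm1 (-0.45), Usp34 (-0.47), 4932438A13Rik (-0.35), Nf1 (-0.49), Rbm4b (-0.51), Rbm4 (-0.67), Tmem245 (-0.47), Nbea (-0.46), Ska3 (-1.42), Klrg2 (-1.30), Ppm1e (-1.07), A730049H05Rik (-1.06), Kcnab1 (-0.92), Prag1 (-0.92), Pde3a (-0.54), Kmt2c (-0.28), Bptf (-0.39), Neat1 (-1.61), Airn (-0.56), Kcnq1ot1 (-0.48), Rbm15 (-0.33), Rbm26 (-0.37) and Rbm6 (-0.26).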

How the results depend on the processing

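All alternatives are compared with 200 genes past the threshold, 119 of them protein-coding (47 positive, 72 negative) and 29 of them list members. DESeq2 gave 488 genes, 350 protein-coding, 233 positive and 117 negative, and 86 list members. Library size alone gave 0 positive and 124 negative protein-coding genes, and upper-quartile factors gave 25 and 125. With no filter 27 genes passed, 10 of them protein-coding, 0 positive and 10 negative. With protein-coding genes alone in the fit 111 passed, 16 of them positive. The nuclear RNA mean as a covariate left 0 genes, 0 protein-coding, 0 positive and 0 negative, with 1674 protein-coding genes at an unadjusted p below 0.05, and turned the differences of Kcnq1ot1 to 0.047, Dusp4 to -0.63 and Dtx3 to 0.0072. The share of counts outside protein-coding genes as a covariate gave 183 protein-coding genes, 83 of them positive. The offset for exon length gave 48, 9 positive and 39 negative, and 11 list members. The cause of these shifts was not tested.

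Leaving out 1 library gave 49 to 371 genes, 23 to 217 protein-coding, 2 to 120 positive, 20 to 116 negative and 5 to 50 list members, and -0.37 to -0.27 for Afdn, which passed in none of these fits. Over the 70 named genes other than Afdn and 26 such fits, 1437 values kept direction and side of the threshold, 371 no longer passed, 12 newly passed and 0 reversed; under the other alternatives these were 716, 174, 13 and 3. No paired analysis was possible because the replicate numbers are not shared between groups.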
